A study of Mus musculus with 2 samples.

Results

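The 8 genes described here encode acute-phase proteins, and they were taken by symbol from the 27998 genes that the count files list: *Lcn2*, *Hp*, *Cp*, *Saa3*, *Saa1*, *Orm1*, *Lrg1* and *Fgl1*. All 8 were found under 1 identifier each. Droplet-based single-cell RNA sequencing was done on lung organoids that were grown from alveolar type 2 (AT2) cells together with stromal cells. The series' design text gives 2 weeks of culture, and the study's own description of these organoids gives a longer time. The AT2 cells came from tamoxifen-treated mice of the C57BL/6 strain with the genotype Sftpc-CreERT2;R26RTomato, in which the surfactant protein C promoter drives the Cre that marks AT2 cells and their progeny. Control organoids received PBS and the other group received IL-1β, and 1 library was made per condition. The design therefore allows no p-value and no error between replicates, and each 95% interval given here covers counting error alone. The mice of most of the study's experiments were young adults, and no source used here gives the age for these libraries in particular. The sources name more than 1 dose of IL-1β.

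Acute-phase proteins are secreted proteins whose blood level shifts during inflammation. The liver makes most of them, under the control of IL-6 through STAT3 and of IL-1 through NF-κB and C/EBP factors, and epithelial and mesenchymal cells of the lung can make some. Some bind bacterial iron carriers, haemoglobin or copper (*Lcn2*, *Hp* and *Cp* in that order), and the serum amyloid A proteins travel with lipoproteins. Others are plasma glycoproteins with roles in immune and vascular signaling (*Orm1*, *Lrg1*, *Fgl1*).

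The promoter sequences of 5 of the 8 genes were in the RefSeq table for GRCm38.p6, and the 250 bases upstream of each start were searched on both strands for 3 motifs. The letters TTGCNNAA, an 8-base core that C/EBP factors can bind, were found in 4 of these genes. They were in 9.56% of the 32851 promoter entries of the same length. The first value counts genes and the second entries, and a gene can have more than 1 entry. The *Cp* entry that starts farther upstream held no match. The STAT motif TTCNNNGAA (7.02% of entries) and the NF-κB consensus (3.90% of entries) were in none of the 5 genes, which says only that these letters are not in these windows. No motif match overlapped another. The matches of *Lcn2*, *Cp*, *Saa3* and *Saa1* are shown with 11 bases on each side, 5′ to 3′ on the gene's strand, motif in capitals. Those of *Lcn2* and *Cp* lie upstream of the start site used but inside the annotated gene. These genes span 32384633 to 32388252 on chromosome 2 and 19957054 to 20009145 on chromosome 3.
Lcn2, chr2:32387937-32387966, minus strand: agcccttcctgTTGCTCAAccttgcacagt
Cp, chr3:19957168-19957197, plus strand: attagttactcTTTTGCAAcattaaattgt
Saa3, chr7:46715757-46715786, minus strand: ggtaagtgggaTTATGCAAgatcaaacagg
Saa1, chr7:46743144-46743173, minus strand: ctgtgctcccaTTGCACAAtgagggagaat
The match in *Lcn2* began 216 bases before the start site of its promoter entry, that in *Saa1* 182 and that in *Saa3* 99. The match in *Cp*, counted from the downstream of its start sites, began 70 bases before it. A match describes the sequence and is not evidence that a factor binds there.

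The upstream stretch of *Saa3*, the most abundant member in these libraries, is given in full (chr7:46715701-46715926, minus strand). It runs from base -250 to base -25, where its annotated first exon begins. That of *Saa1* is given from base -250 to base -1 (chr7:46742981-46743230, minus strand). Both genes lie in the same cluster on chromosome 7, and of the cell classes described below both were highest in the stromal-like one. Within that class their order over the control clusters differed.
Saa3: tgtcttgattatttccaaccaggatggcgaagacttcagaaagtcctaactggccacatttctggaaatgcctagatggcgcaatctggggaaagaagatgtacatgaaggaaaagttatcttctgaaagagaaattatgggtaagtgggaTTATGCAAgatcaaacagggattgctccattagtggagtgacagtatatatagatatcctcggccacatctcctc
Saa1: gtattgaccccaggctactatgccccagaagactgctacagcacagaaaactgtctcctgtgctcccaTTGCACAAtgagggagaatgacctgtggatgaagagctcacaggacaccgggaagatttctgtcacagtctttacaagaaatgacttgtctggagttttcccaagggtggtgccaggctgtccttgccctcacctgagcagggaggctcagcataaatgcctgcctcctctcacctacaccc

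The control library held 2101 cell barcodes and 33965848 unique molecular identifiers (UMIs), and the IL-1β library 3066 barcodes and 41220175 UMIs, with medians of 14613 and 11496.5 UMIs per barcode. After the study's cutoffs 2081 control and 3058 IL-1β cells were analysed, and 11 barcode sequences occurred in both libraries. Clusters were named from marker genes, without using the 8 genes. AT2-lineage-like cells numbered 807 (control) and 1902 (IL-1β). All 8 AT2 markers, among them *Sftpc* and *Lamp3*, were detected in them, but also in the stromal-like, AT1-scoring and DATP-like cells described next. The name therefore rests on the levels of these markers and not on their detection. Stromal-like cells numbered 780 and 475. Cells of clusters that scored highest for AT1 markers numbered 262 and 436. They are called AT1-scoring, because the IL-1β cluster was led by more markers of damage-associated transient progenitors (DATPs), an intermediate between AT2 and AT1 cells, than of AT1 cells. DATP-like cells numbered only 30 and 194, and the control number ran from 0 to 105 under other clusterings, so their values carry the least weight. Nearly every cluster came from 1 library, so a class is compared here between different clusters. Of the AT2-lineage-like control cells, 791 were of the cluster led by *Bex2* and *Bex4*. The IL-1β cells were of the clusters led by *Dmkn*, *Cxcl5* and *BC030867*. The *Dmkn* cluster also held 3 control cells and the *Cxcl5* cluster 13, which count as control AT2-lineage-like cells here. Stromal-like control cells were mostly of clusters led by *Dio2*, *Tagln* and *Cadps*, and the IL-1β cells mostly of clusters led by *Mmp12* and *Fut9*. The *Tagln* cluster also held 17 IL-1β cells and the *Dio2* cluster 1. The *Mmp12* cluster also held 3 control cells and the *Fut9* cluster 7. All of these count with the stromal-like cells of their own library. In this 3′ UMI assay a level, given as counts per 1000000 UMIs of the class (CPM), does not scale with gene length. Levels of the control library are given as with PBS and those of the other as with IL-1β, and a fold is the second level over the first.

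In AT2-lineage-like cells, 7 of the 8 genes had at least 100 UMIs over both libraries, and 6 of these 7 were at least 2-fold higher with IL-1β, where 7.13% of the 10204 genes with as many UMIs were. The exception was *Lrg1*, at 1.27-fold. The members, and the other gene lists used below, were chosen with earlier results of these data known. The share over all genes is therefore no test of their counts, here or below. *Orm1* and *Fgl1* reached 100 UMIs through the IL-1β library alone, and *Saa1* did not reach them. In stromal-like cells 6 of 7 were likewise at least 2-fold higher, against 3.61% of 9987 genes, with *Cp* at 1.52-fold and *Orm1* under 100 UMIs. *Saa1* and *Fgl1* reached 100 UMIs there through the IL-1β library alone. None of the 8 genes was at or below 0.5-fold in any class, where 2.52% of the genes compared in AT2-lineage-like, 2.66% in AT1-scoring, 4.22% in DATP-like and 10.2% in stromal-like cells were. The 8 genes together made up 0.628% of the UMIs of control and 2.57% of those of IL-1β AT2-lineage-like cells, and 1.39% and 7.41% of those of stromal-like cells. The libraries differ in which clusters they hold, and a difference between the treatments and one between the library preparations cannot be told apart.

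**Figure D1:**
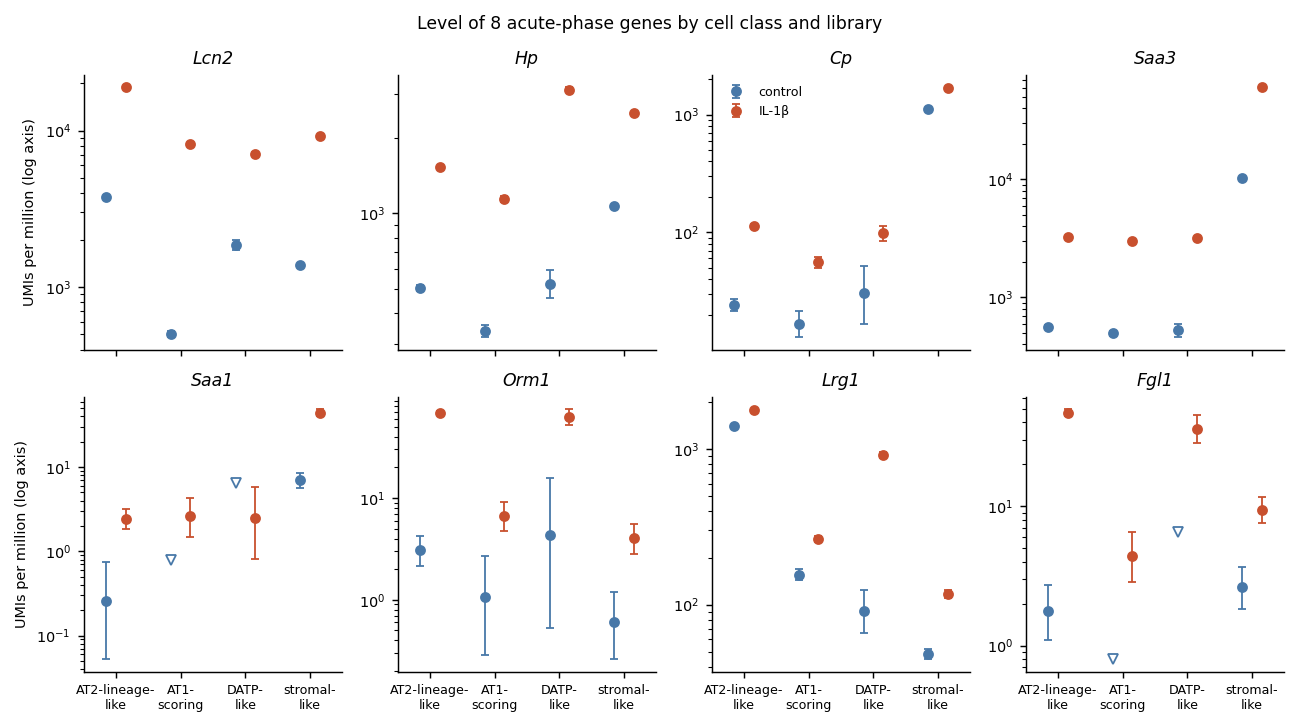
Level of each of the 8 genes in CPM (log axis) in 4 cell classes, for the control (blue) and the IL-1β (orange) library. Bars are exact Poisson 95% intervals, and open triangles stand for 0 UMIs, drawn at the level that 3 counts would give. Each IL-1β value above 0 lies over its control value wherever the control gene was counted, while Saa3 and Cp are highest in stromal-like cells and Lrg1 in AT2-lineage-like cells.

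*Lcn2* (ENSMUSG00000026822, GRCm38 chromosome 2, 32384633 to 32388252) encodes lipocalin-2, which takes up the siderophores with which bacteria collect iron. AT2-lineage-like cells held 3773 CPM with PBS (interval 3738 to 3808) and 18927 with IL-1β (interval 18870 to 18984), which is 5.02-fold (interval 4.97 to 5.07). It was the 29th most abundant gene of these cells with PBS and the fourth with IL-1β. Stromal-like cells also held *Lcn2*, at 1382 CPM with PBS and 9258 with IL-1β, 6.70-fold (interval 6.59 to 6.81). AT1-scoring cells had the lowest control level of the 4 classes (503 CPM, interval 480 to 526) and reached 8158 with IL-1β (interval 8084 to 8233), 16.2-fold (interval 15.5 to 17.0). DATP-like cells were at 1862 and 7143 CPM, 3.84-fold (interval 3.58 to 4.11), a value that ran from 2.07 at a clustering resolution of 2.0 to 21.4 with no filter on barcodes. The order of the classes was AT2-lineage-like, DATP-like, stromal-like and AT1-scoring in the control library, and AT2-lineage-like, stromal-like, AT1-scoring and DATP-like in the IL-1β library, with no overlap of neighboring intervals in either. These intervals leave out the spread over cells. With each cell thinned to 4600 UMIs, the top 10% of the 30 control DATP-like cells held 54.5% of their *Lcn2* UMIs. The control medians were then 2.5 UMIs per cell in DATP-like and 2 in stromal-like cells, so the order of these classes rests on few cells.

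*Hp* (ENSMUSG00000031722, chromosome 8, 109575128 to 109579172) encodes haptoglobin, which binds free haemoglobin. AT2-lineage-like cells were at 504 CPM with PBS and 1528 with IL-1β, 3.03-fold (interval 2.95 to 3.12), and stromal-like cells at 1066 and 2515 CPM, 2.36-fold (interval 2.31 to 2.41). In the control library the level of DATP-like cells (521 CPM, interval 457 to 592) could not be separated from that of AT2-lineage-like cells (interval 491 to 516). In the IL-1β library DATP-like cells had the highest level of the 4 classes (3129 CPM, interval 3052 to 3208), 6.00-fold that with PBS (interval 5.28 to 6.86). The highest levels of *Hp* were in small groups outside these classes. The 9 airway-secretory-like cells, all of the IL-1β library and led by *Scgb3a1* and *Bpifa1*, gave 12125 CPM (interval 11671 to 12592), and 13 control cells of a cluster led by *Adipoq* and *Cfd*, genes known from adipocytes, gave 6403 CPM (interval 6122 to 6693).

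*Cp* (ENSMUSG00000003617, chromosome 3, 19957054 to 20009145) encodes ceruloplasmin, the copper-carrying ferroxidase of plasma. The gene overlaps *Hps3* on the other strand, and whether the counting used strand is not given in the sources used here. *Cp* was mainly a stromal transcript: stromal-like cells held 95.5% of its UMIs with PBS and 80.7% with IL-1β, where they held 40.4% and 23.3% of all UMIs. Its stromal level was 1106 CPM with PBS (interval 1088 to 1124) and 1687 with IL-1β (interval 1661 to 1713), 1.52-fold (interval 1.49 to 1.56). AT2-lineage-like cells were far lower, at 24.0 CPM (interval 21.3 to 27.0) and 114 CPM (interval 110 to 119), 4.75-fold (interval 4.20 to 5.39). The control intervals of the 3 epithelial classes overlapped one another. In the 9 airway-secretory-like cells *Cp* reached 2914 CPM (interval 2694 to 3148), above the stromal-like class as a whole.

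*Saa3* (ENSMUSG00000040026, chromosome 7, 46711998 to 46715700), a serum amyloid A gene known for expression outside the liver, had the highest level of the 8 genes. Stromal-like cells were at 10292 CPM with PBS (interval 10238 to 10347) and 60438 with IL-1β (interval 60282 to 60595), 5.87-fold (interval 5.84 to 5.91). It was the fifth most abundant gene of control stromal-like cells and the most abundant of all genes in the IL-1β ones. Stromal-like cells held 92.8% of the *Saa3* UMIs with PBS and 85.2% with IL-1β. AT2-lineage-like cells were at 566 CPM (interval 553 to 580) and 3248 CPM (interval 3225 to 3272), 5.74-fold (interval 5.59 to 5.88). The folds in AT1-scoring (6.05, interval 5.77 to 6.35) and DATP-like cells (6.08, interval 5.35 to 6.95) lay close to it.

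*Saa1* (ENSMUSG00000074115, chromosome 7, 46740497 to 46742980), the form best known from liver and plasma, was rare. Stromal-like cells held 93 of its 97 UMIs with PBS and 419 of its 496 with IL-1β, at 7.03 and 44.3 CPM, 6.30-fold (interval 5.02 to 7.98). AT2-lineage-like cells had 3 UMIs with PBS and 55 with IL-1β, 9.59-fold with a wide interval of 3.11 to 47.9. Control AT1-scoring and DATP-like cells had 0 UMIs, and 3 counts, the limit used here for a count of 0, would be 0.798 and 6.54 CPM. Against that limit *Saa1* was at least 3.31-fold higher in IL-1β AT1-scoring cells (15 UMIs), a value whose own counting limit was 2.37 and which was 1.202 with each cell thinned to the same number of UMIs, and no ratio is given for DATP-like cells (5 UMIs). The paralog *Saa2* had 20 and 441 UMIs in stromal-like cells, at 1.51 and 46.6 CPM, 30.8-fold (interval 19.7 to 51.0). Of the 98-base windows in the last 500 bases of the *Saa1* transcripts, 11.2% also occur in *Saa2*, so reads from there cannot be assigned to 1 gene and the split between them is uncertain.

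*Orm1* (ENSMUSG00000039196, chromosome 4, 63344560 to 63348163) encodes alpha-1-acid glycoprotein, an abundant plasma carrier of basic and lipophilic molecules. AT2-lineage-like cells had 36 UMIs with PBS and 1542 with IL-1β, at 3.06 CPM (interval 2.14 to 4.23) and 68.4 CPM (interval 65.1 to 71.9), 22.4-fold (interval 16.1 to 32.1). This value moved to 13.7 with no filter on barcodes and to 28.5 with each cell thinned to the same number of UMIs. Of the 36 control UMIs, 22 were in the main control cluster of 791 cells, at 1.91 CPM. The rest were in the 3 and 13 control cells of the *Dmkn* and *Cxcl5* clusters. The control level and the fold therefore rest in part on these few cells, and the fold without them was not computed. In the IL-1β library DATP-like cells had a level that overlapped that of AT2-lineage-like cells (62.7 CPM, interval 52.2 to 74.7). AT1-scoring (6.68 CPM) and stromal-like cells (4.02 CPM) were far lower and overlapped each other. *Orm2* had 4 and 114 UMIs in AT2-lineage-like cells, 14.9-fold (interval 5.66 to 55.6), and *Orm3* 0 and 85 UMIs, at least 14.8-fold higher. Of the same kind of windows of *Orm1*, 12.7% also occur in *Orm2* and none in *Orm3*.

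*Lrg1* (ENSMUSG00000037095, chromosome 17, 56119678 to 56122001) encodes leucine-rich alpha-2-glycoprotein, which modulates TGF-β signaling in endothelium. By share of UMIs it was the member most concentrated in AT2-lineage-like cells, although with IL-1β *Orm1* (83.7%) and *Fgl1* (82.9%) came near. These cells held 76.4% of the *Lrg1* UMIs with PBS and 88.5% with IL-1β, where they held 36.0% and 55.5% of all UMIs. Their level was 1411 CPM with PBS (interval 1389 to 1432) and 1787 with IL-1β (interval 1770 to 1805), 1.27-fold (interval 1.24 to 1.29), which stayed under 2 in all 13 alternative settings. *Lrg1* ranked 3041st by fold among the 10204 genes compared in these cells, and *Lcn2* ranked 161st. *Orm1* ranked 36th and *Fgl1* 31st, from 36 and 21 control UMIs. Both reached the UMI minimum for the comparison through the IL-1β library alone. A gene with so few control UMIs is ranked only if its IL-1β count is high enough, which favors a high rank. The ranks of *Orm1* and *Fgl1* are therefore not set against that of *Lrg1*. DATP-like cells were at 91.6 CPM with PBS, from 42 UMIs, and at 919 with IL-1β, 10.0-fold (interval 7.39 to 14.0), a value that was 1.07 when each library was clustered separately. Stromal-like cells were at 48.3 and 118 CPM, 2.44-fold (interval 2.21 to 2.69). Outside these classes, the control cluster led by *Scgb1a1* and *Cd24a* was at 1368 CPM (interval 1307 to 1432) and control cycling-like cells at 1133 CPM.

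*Fgl1* (ENSMUSG00000031594, chromosome 8, 41191434 to 41215156) encodes a fibrinogen-like protein that is a ligand of the T cell receptor LAG-3. AT2-lineage-like cells had 21 UMIs with PBS and 1058 with IL-1β, at 1.78 CPM (interval 1.10 to 2.72) and 46.9 CPM (interval 44.2 to 49.9), 26.3-fold (interval 17.1 to 42.7). With each cell thinned to the same number of UMIs this value was 60.0, but only 0.372% of the 807 control cells then still held a UMI. AT1-scoring and DATP-like control cells had 0 UMIs, and against the limit of 3 counts *Fgl1* was at least 5.51-fold higher in AT1-scoring (25 UMIs) and at least 5.52-fold higher in DATP-like cells (72 UMIs) of the IL-1β library. The counting limits of these values were 4.16 and 4.38, and with thinned cells the values were 3.005 and 1.65, while the second was 66.7 with each library clustered separately. Stromal-like cells had 35 and 89 UMIs, 3.56-fold (interval 2.38 to 5.42). When thinned the value was 6.84-fold, with a UMI left in only 0.641% of the 780 control cells. With PBS, no difference between AT2-lineage-like and stromal-like cells (interval 1.84 to 3.68 CPM) was detectable at this depth.

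**Figure D2:**
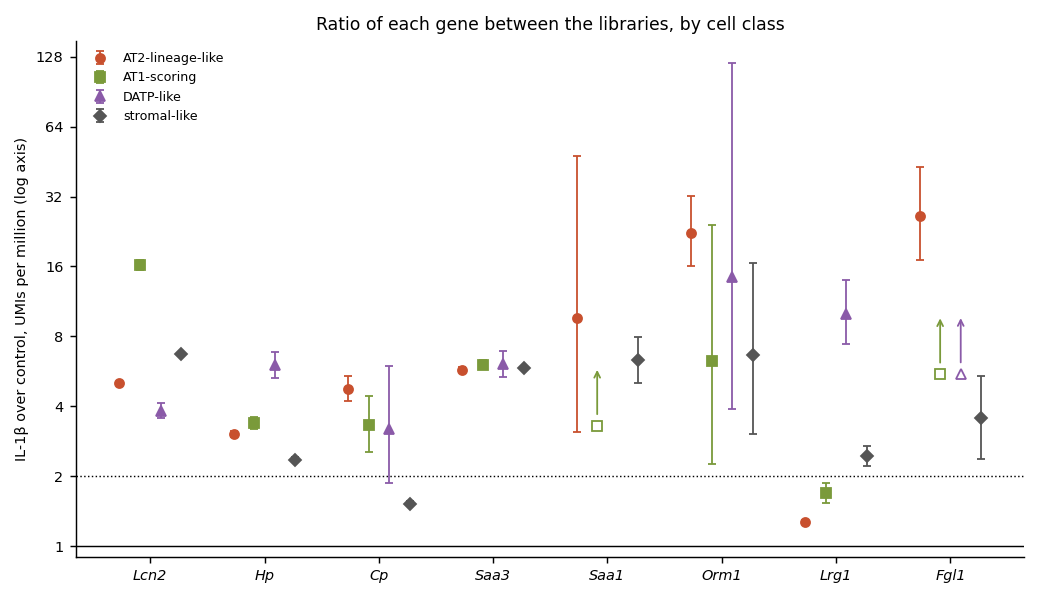
Level with IL-1β over level with PBS for each gene in 4 cell classes, on a log axis, with exact 95% intervals for counting error. Open symbols with arrows are lower bounds where the control had 0 UMIs, the solid line marks 1 and the dotted line 2. Saa3 lies between 5.74 and 6.08 in every class, Lcn2 ranges from 3.84 to 16.2, and Lrg1 is under 2 in AT2-lineage-like and AT1-scoring cells.

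In AT1-scoring cells 4 of the 5 members with at least 100 UMIs (*Lcn2*, *Hp*, *Cp* and *Saa3*) were at least 2-fold higher with IL-1β, where 4.11% of 8034 genes were. *Cp* reached 100 UMIs through the IL-1β library alone. *Hp* was at 338 and 1141 CPM, 3.38-fold (interval 3.18 to 3.59), and *Cp* at 16.8 and 55.7 CPM, 3.33-fold (interval 2.53 to 4.43). *Lrg1* was at 156 and 264 CPM, 1.69-fold (interval 1.54 to 1.86), and *Orm1* had 4 and 38 UMIs, 6.28-fold (interval 2.26 to 24.2). The AT1-scoring cells of the IL-1β library carried AT2 markers at a median of 34.0% of their AT2-lineage-like level (range 14.8% to 87.8%), against 20.8% in the control (range 12.7% to 56.2%). *Lcn2* was at 43.1% and 13.3% of its AT2-lineage-like level. The part of AT2 transcripts in the *Lcn2* difference of these cells was not tested. With the highest-scoring 5% of cells left out the *Lcn2* value was 33.3-fold, that of *Hp* 7.27-fold, that of *Orm1* 15.8-fold and that of *Lrg1* 3.25-fold. In DATP-like cells 6 members reached 100 UMIs and were at least 2-fold higher, where 7.23% of 3528 genes were, 3 of the 6 through the IL-1β library alone. Their *Cp* level was 3.20-fold (interval 1.86 to 5.97) and their *Orm1* level 14.4-fold (interval 3.90 to 120.0), the latter from 2 control UMIs. In other settings the DATP-like value of *Cp* reached 7.19 and that of *Hp* 11.1, and that of *Orm1* ran from 3.94 to 35.2.

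The genes differed in how evenly they were spread over clusters. *Saa3* was nearly flat over the larger epithelial clusters: it ran from 483 to 526 CPM over 5 control clusters of at least 20 cells, and from 2808 to 3355 over 6 IL-1β clusters. The 3 and 13 control cells in the *Dmkn* and *Cxcl5* clusters are not among these. With them, control AT2-lineage-like cells were at 566 CPM. *Lrg1* ran from 91.6 to 1418 CPM over the same control clusters and from 267 to 2081 over the IL-1β ones. Within the 3 AT2-lineage-like clusters of the IL-1β library *Fgl1* differed most, from 15.2 CPM in the *Cxcl5* cluster (interval 12.4 to 18.4) over 38.9 in the *Dmkn* cluster (interval 35.2 to 42.9) to 104 in the *BC030867* cluster (interval 95.7 to 113). *Orm1* followed the same order at 28.2, 73.5 and 111 CPM. *Lcn2* varied much less and in another order, with 16713 CPM in the *Cxcl5*, 17751 in the *BC030867* and 21005 in the *Dmkn* cluster. In 36 IL-1β cells led by *Ccl20* and *Spib* *Orm1* was at 131 CPM (interval 103 to 163), which overlapped the *BC030867* cluster (interval 102 to 120). In the control library the cluster led by *Scgb1a1* and *Cd24a* (100 cells) had more *Hp* (1286 CPM) and *Orm1* (16.2 CPM, from 22 UMIs) than the main AT2-lineage-like cluster (485 and 1.91 CPM). It scored highest for AT2 markers but stayed unnamed, because airway-secretory markers led it. Its cells are not in the control AT2-lineage-like class, which was at 504 and 3.06 CPM. The folds of *Hp* and *Orm1* with these cells included were not computed.

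Stromal-like clusters differed within each library. In the control, *Saa3* was at 19631 CPM in the cluster led by *Tagln* and *Acta2*, at 9704 in that led by *Dio2* and at 1340 in that led by *Cadps*. *Lcn2* followed the same order at 3426, 1069 and 421 CPM. *Cp* did not, being highest in the *Dio2* cluster (1304 CPM) and lowest in the *Tagln* cluster (491 CPM). In the IL-1β library the 250 *Mmp12* cells and the 207 *Fut9* cells had much the same *Saa3* (61066 and 61672 CPM), although the median depths of the whole clusters were 26571 and 7866.5 UMIs. *Cp* (1305 and 3242 CPM), *Hp* (1994 and 4238 CPM) and *Saa1* (41.2 and 65.0 CPM) were higher in the *Fut9* cells.

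**Figure D3:**
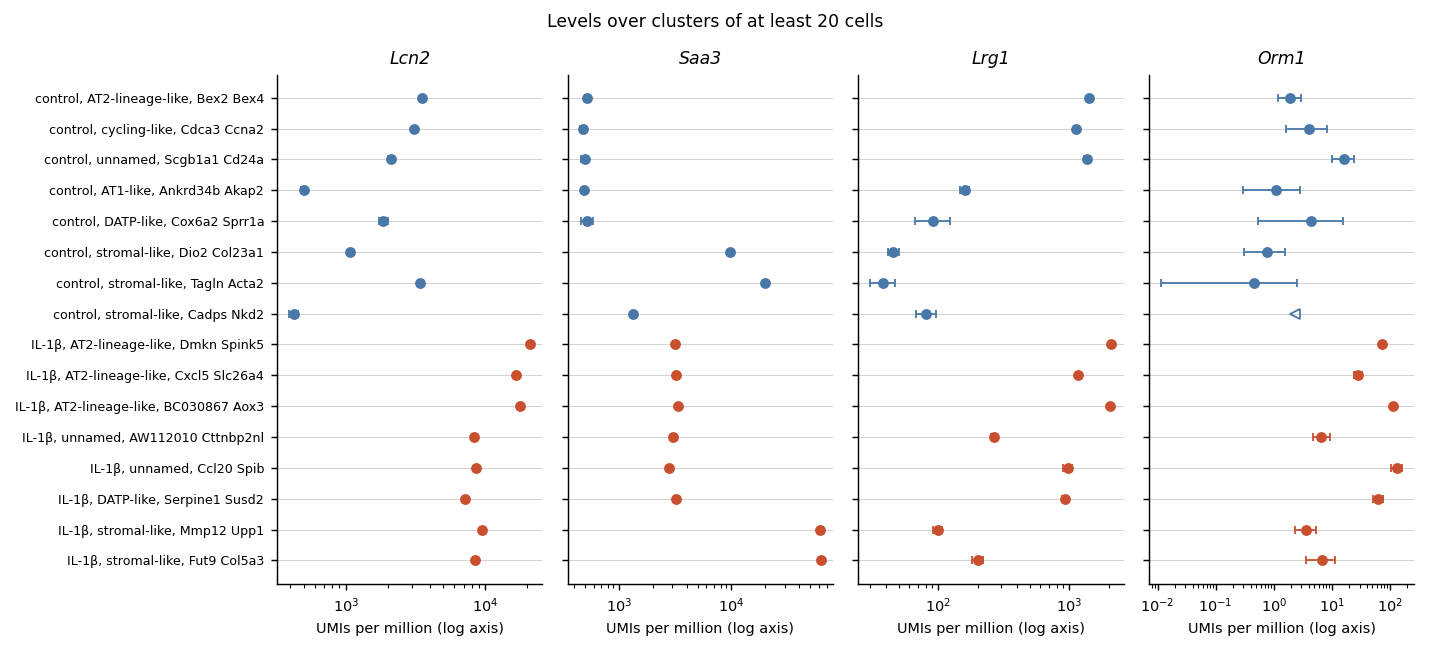
Level of Lcn2, Saa3, Lrg1 and Orm1 in CPM (log axes) in each cluster of at least 20 cells, 1 row per cluster with its library, class and its 2 leading genes, for the control (blue) and the IL-1β (orange) library. Bars are exact Poisson 95% intervals, the open triangle is the upper limit for 0 UMIs, and the AT1-scoring class is mostly the control cluster led by Ankrd34b and the IL-1β cluster led by AW112010. Saa3 forms a flat column over the epithelial clusters of each library, at 483 to 526 with PBS and 2808 to 3355 with IL-1β.

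In droplet data, free RNA adds UMIs of a gene to cells that do not express it, and markers of the other class give its scale. The 7 stromal markers were found in AT2-lineage-like cells at 1.69% to 7.40% of their stromal-like level with PBS (median 2.04%) and at 1.70% to 5.34% with IL-1β (median 2.56%). *Saa3* in AT2-lineage-like cells was at 5.50% and 5.37% of its stromal-like level, *Saa1* at 3.62% and 5.51%, and *Cp* at 2.17% and 6.76%. With PBS *Saa3* was above every stromal marker but *Sparc*, the next being *Mgp* at 4.34%, and *Saa1* and *Cp* were below both. *Sparc*, which set the upper end in both libraries, was also found in control AT1-scoring cells at 86.7% of its stromal-like level. With IL-1β all 3 genes were above the 7 markers, *Saa3* and *Saa1* only just. The part of free RNA in the AT2-lineage-like levels of *Saa3*, *Saa1* and *Cp* was not tested. In the 9 airway-secretory-like cells *Cp* was above its stromal-like level, as given above. *Hp* was at 47.2% and 60.8%, several times above every stromal marker.

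In the other direction, the 8 AT2 markers were in stromal-like cells at 2.67% to 6.15% of their AT2-lineage-like level with PBS and at 5.18% to 6.96% with IL-1β. *Lrg1* in stromal-like cells was at 3.42% and 6.60%, within both ranges, and *Orm1* in the IL-1β library at 5.87%, likewise, whereas with PBS, from 8 stromal-like UMIs, it was at 19.8%. *Lcn2* was at 36.6% and 48.9%, above every AT2 marker in both libraries. *Fgl1* was at 149% with PBS, from the few UMIs given above, and at 20.05% with IL-1β, above every AT2 marker in both. The marker list of neutrophils, cells known for stored *Lcn2* and *Hp* proteins, summed to 1.19 CPM in control and 6.21 in IL-1β AT2-lineage-like cells, and to 10.5 and 83.4 in stromal-like cells, with 3 to 5 of its 6 genes detected and *S100a9* at 0 UMIs in all of these. Their part in the values was not tested.

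**Figure D4:**
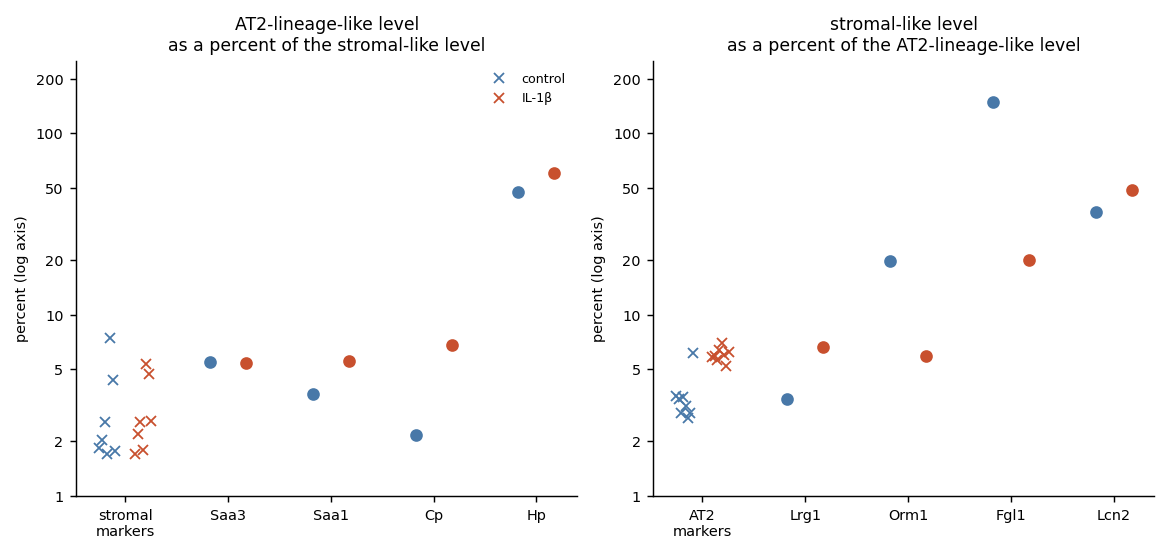
Left, levels in AT2-lineage-like cells as a percent of the stromal-like level, for 7 stromal markers (crosses) and 4 genes (points); right, levels in stromal-like cells as a percent of the AT2-lineage-like level, for 8 AT2 markers and 4 genes, on log axes, in the control (blue) and the IL-1β (orange) library. Hp at 47.2% and 60.8% and Lcn2 at 36.6% and 48.9% lie far above the markers, whereas Lrg1 and Saa3 lie among or close to them.

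To compare single cells at equal depth, each cell was thinned to 4600 UMIs, which left out no cell. *Lcn2* was then found in 100% of the 807 control and 1902 IL-1β AT2-lineage-like cells, with a median of 12 and 77 UMIs per cell. Its 10th and 90th percentiles were 4 and 28 with PBS and 34 and 138 with IL-1β, so the 10th percentile with IL-1β lay above the 90th with PBS. *Hp* was found in 78.8% of control cells (exact binomial interval 75.8% to 81.6%) and in 95.4% of IL-1β cells (interval 94.3% to 96.3%). *Lrg1* had medians of 5 and 7 UMIs. *Orm1* and *Fgl1* had a median of 0 in both libraries, and in the IL-1β library the 10% of cells with the most UMIs of each gene held 69.1% of the *Orm1* and 82.1% of the *Fgl1* UMIs, against 19.9% for *Lcn2*.

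*Saa3* was more uneven over stromal-like than over AT2-lineage-like cells by both measures given here, which went apart for *Lrg1*. *Saa3* had a median of 12 thinned UMIs in control cells with a 90th percentile of 117, and a median of 195 with a 90th percentile of 586 in IL-1β cells. The variance of *Saa3* was 130 and 194 times its mean, whereas it was 1.87 and 2.67 times in AT2-lineage-like cells, where the mean was lower. Its standard deviation was 1.77 and 0.870 times its mean, against 0.859 and 0.414 times in AT2-lineage-like cells. The variance of *Lrg1* was 1.11 and 1.77 times its mean in stromal-like cells, below the 6.26 and 4.56 times in AT2-lineage-like cells. Its mean was lower in stromal-like cells, at 0.258 and 0.617 thinned UMIs against 6.15 and 7.93. The standard deviation of *Lrg1* was 2.08 and 1.70 times its mean there, above the 1.01 and 0.758 times in AT2-lineage-like cells. Over the 475 IL-1β stromal-like cells *Saa3* and *Lcn2* were correlated at a Spearman coefficient of 0.45, and at 0.47 over the 780 control cells. In AT2-lineage-like cells the highest coefficient between members was that of *Lcn2* with *Lrg1*, at 0.39 with PBS and 0.26 with IL-1β, while *Lcn2* and *Sftpc* gave 0.29 and 0.22. These coefficients describe cells that share a library, and cells are not replicates.

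**Figure D5:**
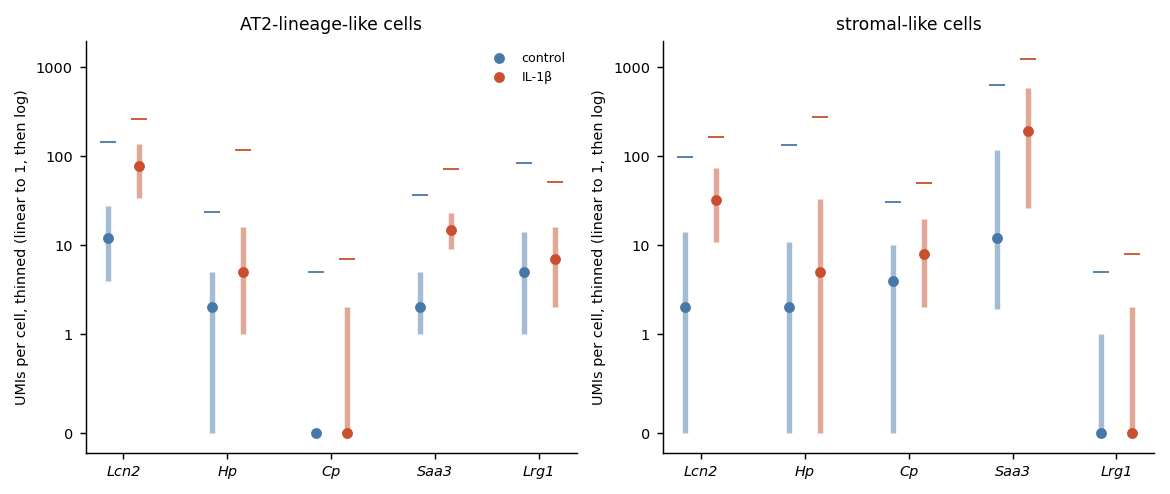
Thinned UMIs per cell (linear up to 1, then log) of 5 genes in AT2-lineage-like and stromal-like cells of the control (blue) and the IL-1β (orange) library. Points are medians, thick bars run from the 10th to the 90th percentile and dashes mark the highest cell. Lcn2 in AT2-lineage-like cells has medians of 12 and 77, and Saa3 in stromal-like cells of 12 and 195.

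Other acute-phase genes were taken from a list of 27. Of these, 9 had at least 100 UMIs in AT2-lineage-like cells, 5 of them through the IL-1β library alone, and 6 were at least 2-fold higher there and none lower (7.13% and 2.52% over all genes), with a median log2 ratio of 1.88 against 0.12 over all 10204 genes. The complement genes *Cfb* (2.97 to 27.2 CPM, 9.16-fold) and *C3* (148 to 549 CPM, 3.70-fold), the metalloreductase *Steap4* (4.74-fold) and *Itih4* (3.69-fold) were farthest from 1 by the nearer limit of their intervals, while *Serpina3g*, from 20 control UMIs, was at 3.76-fold (interval 2.35 to 6.35). In stromal-like cells 10 of the list were compared, 3 were at least 2-fold higher and 4 at least 2-fold lower (3.61% and 10.2% over all genes), with a median of 0.15 against -0.32. *Steap4* was at 403 and 121 CPM there (0.299-fold), lower with IL-1β in stromal-like and higher in AT2-lineage-like cells, and *Cfb* was at 34.9 and 17.4 CPM (0.499-fold). Of 7 proteins that fall in the acute phase, *Trf*, which encodes the iron carrier transferrin, was higher with IL-1β in AT2-lineage-like cells (741 to 1912 CPM, 2.58-fold) and *Rbp4* was at 52.2 and 38.6 CPM, the only other one compared there. In stromal-like cells both were at least 2-fold higher.

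Among 26 genes of the signals known to drive acute-phase genes, 20 were compared in AT2-lineage-like cells, 5 were at least 2-fold higher and none lower (7.13% and 2.52% over all genes). Of the 20, 4 had under 100 UMIs in the control library, among them *Tnfaip3* and *Lif*. The NF-κB genes *Relb* (4.07-fold), *Nfkbia* (3.59), *Tnfaip3* (3.23) and *Nfkb2* (2.08) were farthest from 1 by the nearer limit of their intervals, and the fifth was *Lif*, which encodes a cytokine of the IL-6 family, at 2.34-fold (interval 1.48 to 3.86). In stromal-like cells, where 3.61% of all genes were higher and 10.2% lower, 2 of 23 were higher, *Il6* (63.7 to 253 CPM, 3.98-fold) and *Lif* (15.7 to 62.9 CPM, 4.02-fold), and 1 was lower, *Cebpa* (75.4 to 22.7 CPM, 0.302-fold). These 3 stromal genes, the stromal values of *Steap4* and *Cfb*, and the AT2-lineage-like values of *Serpina3g* and *Lif* were named after they were seen. Of 13 genes for receptors of the members, 8 were compared in AT2-lineage-like cells, 2 were at least 2-fold higher and 1 lower, and 3 had under 100 UMIs in the control library. The lipocalin receptors went apart, *Lrp2* being lower (179 to 79.8 CPM, 0.446-fold) and *Slc22a17* higher (5.69 to 12.0 CPM, 2.11-fold, interval 1.61 to 2.81). The serum amyloid receptor *Tlr2* was higher (1.87 to 5.01 CPM, 2.69-fold, interval 1.69 to 4.46). *Slc22a17* and *Tlr2* reached 100 UMIs through the IL-1β library alone, with 67 and 22 control UMIs, and both intervals extend under 2.

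Over the 8 IL-1β clusters of at least 30 cells, the genes whose log2 levels were most like a member's were sought among 10440 genes. *Saa3* was most like *Dcn*, *Timp1* and *Nr2f2* (Pearson coefficients of 1.00, 0.999 and 0.999), *Saa1* like *Pltp*, *Ctsk* and *Tshz3*, and *Cp* like *Map3k12*, *Fut9* and *Lamb1*. *Lrg1* was most like *Ly6c2*, *Cd36* and *Atp6v1c2* (0.995, 0.992 and 0.991), *Orm1* like *Trf*, *St8sia6* and *Bcl2a1d*, *Lcn2* like *Sord*, *Tmem164* and *Smad6*, *Hp* like *Gemin5*, *Fbxl17* and *Pogk*, and *Fgl1* like *Pex11a*, *Bcl2l15* and *Tmem220*. Between members the coefficient was 0.99 for *Saa3* with *Saa1*, 0.97 for *Saa3* with *Cp*, 0.92 for *Orm1* with *Lrg1* and 0.88 for *Orm1* with *Fgl1*, and -0.80 for *Saa3* with *Lrg1*. The points of each coefficient are clusters of 1 library, of which 2 are stromal-like and 6 epithelial.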

How the data were processed

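The deposited files hold raw UMI counts per gene and cell barcode, which the authors obtained by running Cell Ranger against GRCm38. The files still hold the stromal cells and the barcodes that the study's methods remove. The control and the IL-1β library were grouped by their GEO labels.

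Kept cells had over 500 and under 7000 detected genes and over 2000 UMIs. The study's scrublet rule marked 3 of 5142 cells (0.0583%), too few for a working caller, so doublets remain. Counts were scaled to 10000 per cell, log-transformed and reduced to 50 principal components and 15 neighbors in scanpy 1.11.5, and Leiden clusters (leidenalg 0.10.2, resolution 1) were found first over all cells and then over epithelial cells, without the members and the other listed genes. Clusters with *Epcam* in under 50% of cells were set aside as not epithelial. An epithelial cluster took the class whose markers, each placed between its lowest and highest cluster on a log2(CPM + 1) scale, had the highest mean. It stayed unnamed where markers of another class led its top 10 genes. This naming rule was set after the clusters were seen. AT1-like cells were to be compared, but the IL-1β cluster that scored highest for AT1 markers was unnamed by this rule, so clusters were compared by their AT1 score. The AT2-lineage-like class was still taken by name. That left out the unnamed control cluster led by *Scgb1a1* and *Cd24a*, whose highest score was for AT2 markers.

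UMIs were summed per library and class, with exact Poisson 95% intervals for levels and exact conditional binomial intervals for ratios. No test was made, since cells are not replicates. A gene was called at a ratio of at least 2 or at most 0.5 with at least 100 UMIs. The rule for named genes took all members, the paralogs *Saa2*, *Orm2* and *Orm3*, and from each other list up to 4 genes with the ratio farthest from 1 by the nearer limit of its interval in AT2-lineage-like cells. *Cebpd* was not analysed here. The members and lists were chosen with earlier results of these data known. The scripts were tested on simulated data. Alternatives varied the cell filter, doublets, clustering, scaling, thinning and gene filter. Positions are those of GENCODE mouse M21.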

Additional observations from a re-analysis of the deposited data

How the results depend on the processing

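Each result was recomputed under 13 alternatives. The counts of members at least 2-fold higher in the IL-1β library ran from 6 to 7 in AT2-lineage-like and stromal-like cells. In AT1-scoring cells the count of 4 became 7 with no filter on genes other than 1 UMI. The members added were *Saa1*, *Orm1* and *Fgl1*, with 0, 4 and 0 control UMIs. The values of *Saa1* and *Fgl1* were taken against the limit for a count of 0. No share over all genes is given for this setting, in which the genes called in these cells numbered 1060 in place of 330. The 7 is therefore not read as a result about the members. Members were also ordered over AT2-lineage-like, AT1-scoring and DATP-like cells alone. Other epithelial groups were left out of this order, and some were higher, as for *Cp* with IL-1β (2914 CPM in airway-secretory-like against 114 in AT2-lineage-like cells). The number of members highest in AT2-lineage-like cells by this order depended on the clustering. It was 5 in the control and became 8 with no filter on barcodes, at resolution 2.0, with all highly variable genes kept, and with each library clustered separately. In the IL-1β library it was 6 and became 2 with the highest-scoring 5% of cells left out and 3 with all highly variable genes kept. The cause was not tested. Several of these orders were not separated by the counting intervals. With PBS *Saa3* was at 566 CPM in AT2-lineage-like and 526 in DATP-like cells (interval 461 to 596), and *Saa1* counted from 3 UMIs. With IL-1β the AT2-lineage-like and DATP-like intervals of *Cp*, *Saa3*, *Orm1* and *Fgl1* overlapped. No ratio of a member crossed 1 in these settings, and 105 of 363 values lay outside the counting interval of the value reported. With no filter on genes other than 1 UMI, the genes at least 2-fold higher numbered 1797 in place of 728 in AT2-lineage-like, 1060 in place of 330 in AT1-scoring and 1296 in place of 361 in stromal-like cells. In DATP-like cells they numbered 255 and ran from 127 with Louvain clustering to 1090 with no filter on genes. No values were computed for AT1-scoring cells with no filter on barcodes and at resolution 0.5, or for DATP-like cells with no removal of doublets, at resolution 0.5 and with random seed 1, since a library then had under 20 such cells. Leaving out surfactant, mitochondrial and ribosomal protein genes from the scaling moved the median log2 ratio of all genes in AT2-lineage-like cells by -0.14. No paired analysis was possible because each condition has 1 library.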
